A study of Arabidopsis thaliana with 6 samples.

Results

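Photosynthetic light capture in Arabidopsis depends on nuclear genes whose products are imported into the chloroplast. The 42 genes described here encode the chlorophyll-binding antenna proteins of photosystem I (LHCA1 to LHCA6, 6 genes), the proteins of the trimeric antenna of photosystem II (LHCB1, LHCB2 and LHCB3, 9 genes), its monomeric antenna proteins (LHCB4, LHCB5 and LHCB6, 5 genes), and the nuclear-encoded subunits of photosystem I (PSA, 12 genes) and photosystem II (PSB, 10 genes). They were chosen by locus identifier from the 28775 genes in the count files. All 42 had enough reads to be tested, and the lowest count of any of them in any library was 1765.

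Messenger RNA of shoots was sequenced from 3 samples of Col-0, the wild-type accession Columbia, and 3 samples of myc2, a mutant of MYC2, which encodes a basic helix-loop-helix regulator of jasmonate responses. The seedlings of both genotypes were 2 weeks old, had grown at 22 °C in days of 16 h light and nights of 8 h, and had no stated treatment before their aerial parts were frozen. No source used here gave the myc2 allele, the number of plants per sample or the hour of harvest. The design asks which genes differ in level between Col-0 and myc2.

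Light-harvesting proteins bind chlorophyll and carotenoids and pass excitation energy to the reaction centres, where plastid-encoded core proteins carry out charge separation. The nuclear subunits around those cores dock the electron carriers, hold the antenna in place and, in photosystem II, shield the water-splitting manganese cluster. Genes of this class are known to be transcribed in green tissue in light, under the control of photoreceptors, the circadian clock and GOLDEN2-LIKE factors, and G-box elements, to which MYC2 and other basic helix-loop-helix and bZIP factors bind, occur in several of their promoters.

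Total counts ran from 21165967 to 30604815 reads per library, and the 42 genes took 6.75% to 7.53% of them. MYC2 itself (AT1G32640) was at 205, 197 and 175 CPM in Col-0 and 69, 73.5 and 71 CPM in myc2, 2.7-fold lower (edgeR quasi-likelihood test, log2 fold change -1.43, SE 0.071, adjusted p = 2.94e-08), with every myc2 library below every Col-0 library. By the run names in the headers, Col-0 replicates 1 and 2 shared a sequencing run, the third Col-0 library was on a run of its own, and the myc2 libraries shared a further run, so that genotype and run cannot be told apart. For that reason the calls among the members, and the values of several of them, are also given against each Col-0 run. In bulk tissue, fewer cells of a type and less RNA per cell cannot be told apart either.

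The gene whose level differed most between the genotypes, LHB1B1, lies beside a near copy, LHB1B2, on chromosome 2. The pair is transcribed in opposite directions from an interval of 1038 bases, LHB1B1 at 14524607 to 14525918 on the plus strand and LHB1B2 at 14522524 to 14523568 on the minus strand (TAIR10.1). The 250 bases before the annotated start of each are shown with those of LHCB2.3, the other gene that was higher in myc2, and of LHCB4.3 and PSAK, the members that were lower with the smallest adjusted p. They were read from the RefSeq TAIR10.1 genome on the strand of the gene at chr2:14524357-14524606 (+), chr2:14523569-14523818 (-), chr3:10255656-10255905 (+), chr2:16745378-16745627 (+) and chr1:10721933-10722182 (+). Capitals mark matches on either strand to a G-box (CACGTG), a G-box-like element (CACATG), an I-box (GATAAG), an evening element (AAAATATCT), a CCA1-binding element (AAAAATCT) or a CCAAT box (CCAAT).
LHB1B1: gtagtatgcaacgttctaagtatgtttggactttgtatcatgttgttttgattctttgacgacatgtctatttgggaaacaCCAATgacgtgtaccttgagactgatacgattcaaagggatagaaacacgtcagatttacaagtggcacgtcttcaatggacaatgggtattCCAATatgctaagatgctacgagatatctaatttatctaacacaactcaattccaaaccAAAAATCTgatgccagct
LHB1B2: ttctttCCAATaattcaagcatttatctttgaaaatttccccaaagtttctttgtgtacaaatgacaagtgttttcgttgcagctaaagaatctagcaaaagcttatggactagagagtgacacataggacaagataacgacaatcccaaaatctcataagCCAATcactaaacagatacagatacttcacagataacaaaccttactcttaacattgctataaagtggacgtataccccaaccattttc
LHCB2.3: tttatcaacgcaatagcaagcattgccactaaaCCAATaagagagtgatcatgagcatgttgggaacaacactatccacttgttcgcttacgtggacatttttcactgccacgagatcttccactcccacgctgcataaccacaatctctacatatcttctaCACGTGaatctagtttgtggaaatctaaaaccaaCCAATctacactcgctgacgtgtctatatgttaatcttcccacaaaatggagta
LHCB4.3: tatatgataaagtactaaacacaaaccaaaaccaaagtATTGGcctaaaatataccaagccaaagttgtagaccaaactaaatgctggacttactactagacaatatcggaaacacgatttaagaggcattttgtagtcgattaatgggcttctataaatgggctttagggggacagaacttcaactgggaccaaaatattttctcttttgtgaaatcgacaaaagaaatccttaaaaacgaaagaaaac
PSAK: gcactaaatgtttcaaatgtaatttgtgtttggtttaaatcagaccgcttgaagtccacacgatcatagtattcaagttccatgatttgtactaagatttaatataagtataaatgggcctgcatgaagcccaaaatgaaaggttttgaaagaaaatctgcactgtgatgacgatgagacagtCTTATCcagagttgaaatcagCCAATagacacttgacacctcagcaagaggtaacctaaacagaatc

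Of these windows only that of LHCB2.3 held a G-box, with its first base 88 bases before the annotated start. The window of LHB1B1 held a CCA1-binding element 18 bases before its start and that of LHB1B2 none, although both held a pair of CCAAT boxes. PSAK had an I-box 67 bases before its start, and LHCB4.3 had a lone CCAAT box 212 bases before it. A match of letters is a description of the window and shows no binding.

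In myc2, 2 of the 42 genes were higher and 11 were lower than in Col-0, and 29 did not pass the test. The genes that were higher were LHB1B1 (2.12-fold) and LHCB2.3 (1.24-fold), both copies of trimeric antenna proteins. The genes that were lower fell by factors of 1.13 to 1.63 and came from every group: LHCA5, LHCB2.2, LHCB4.3, LHCB5, PSAH2, PSAK, PSAO, PSBP1, PSBS, PSBW and PSBX. Calls here are at an adjusted p under 0.05 in edgeR's quasi-likelihood test with Benjamini-Hochberg adjustment over all 18961 genes tested. By the same rule 17.6% of all genes were called higher and 18.7% lower, against 4.76% and 26.2% of the members, so the members that fell were a share near that of genes in general, and few members rose. With all Col-0 libraries in the fit, no member outside the trimeric antenna was higher. The count was 0 as well at an unadjusted p under 0.05, by DESeq2 and by limma-voom. Without Col-0 replicate 3, however, PSAE1, PSAG and PSBY were called higher.

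The median log2 fold change of the members was -0.13, against 0.01 over all genes tested. Below 0 were 33 of 42 members and 9193 of all 18961 genes tested. All 3 myc2 libraries were below all 3 Col-0 libraries for 13 members and above them for 2. Over all genes tested, 24.3% lay below and 25.4% above in this way. Single libraries moved the counts. Without Col-0 replicate 2, 18 members were lower, beside 16.7% of all genes. Without myc2 replicates 1, 2 and 3, 6, 7 and 5 members were lower, beside 14%, 14.1% and 13.9% of all genes. With all libraries in the fit, 11 members (26.2%) and 18.7% of all genes were lower. Without 1 of the myc2 libraries, lower calls thus became fewer in general, and more so among the members. Without Col-0 replicate 2, they became fewer in general but more among the members. Without Col-0 replicate 3, 6 members were higher, beside 21.3% of all genes, and the median was -0.031.

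**Figure D1:**
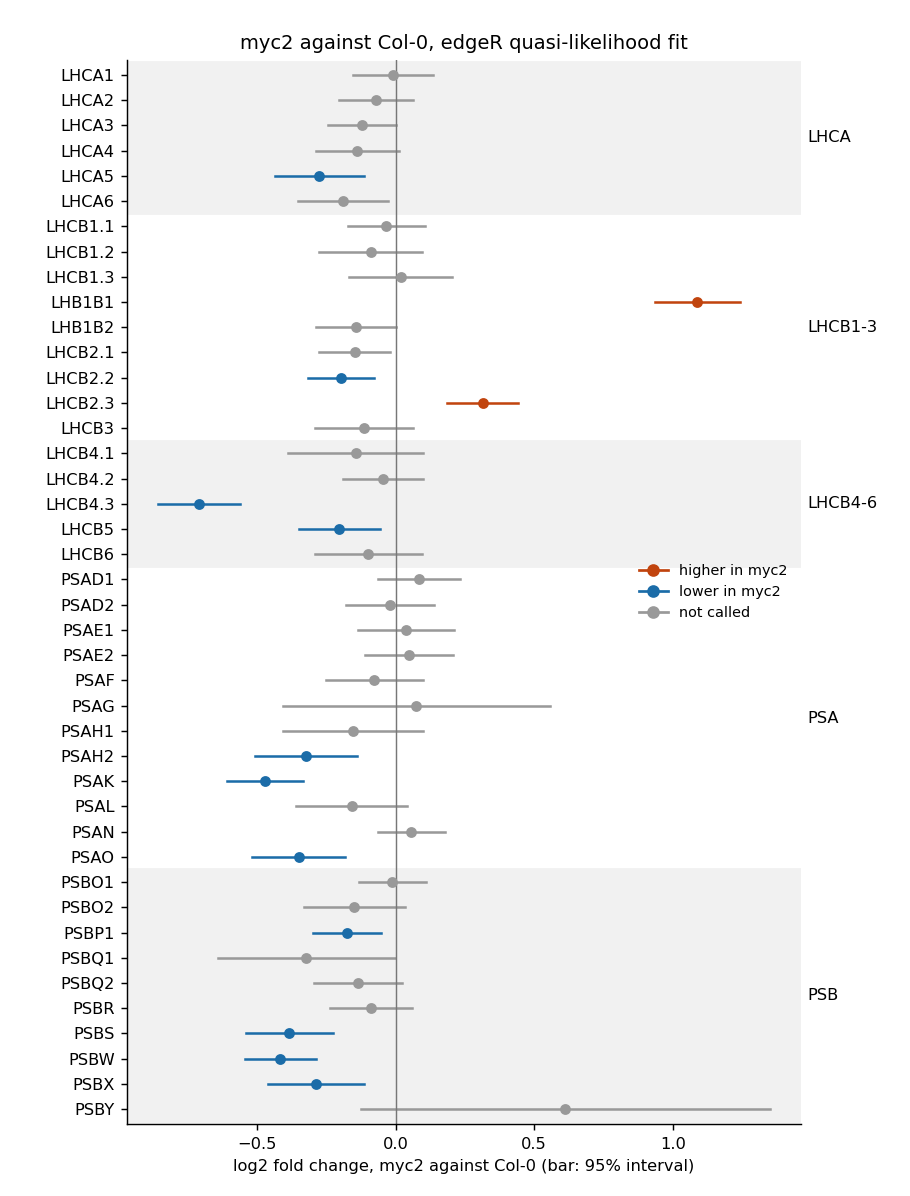
Log2 fold change of each member in myc2 against Col-0 (points) with its 95% interval (bars) from the edgeR quasi-likelihood fit, by gene group. LHB1B1 at 1.09 and LHCB4.3 at -0.71 lie at the ends of the called genes, and the widest interval is that of PSBY, -0.12 to 1.35.

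The trimeric antenna of photosystem II held both genes that rose. LHB1B1 (AT2G34430), also known as LHCB1.4, was at 205, 192 and 226 CPM in Col-0 replicates 1, 2 and 3 and 427, 462 and 434 CPM in the myc2 libraries. Its level in each myc2 library was above that in each Col-0 library (log2 fold change 1.09, SE 0.069, adjusted p = 2.64e-07), and it was higher against Col-0 replicates 1 and 2 and against replicate 3, with log2 fold changes of 1.15 and 0.97. In contrast, its neighbour LHB1B2 (AT2G34420, LHCB1.5) was at 2057, 1803 and 2058 CPM in Col-0 and 1768, 1872 and 1720 CPM in myc2, with overlapping groups (log2 fold change -0.14, SE 0.066, adjusted p = 0.112).

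The other copies of LHCB1, the most abundant light-harvesting protein, lie together on chromosome 1 and did not pass the test. LHCB1.3 (AT1G29930) had the highest level per length among the trimeric antenna genes, with 5028 ± 677 CPM per kb in Col-0 and 5094 ± 195 in myc2 (CPM divided by the annotated exon length, SD, n = 3). It was at 5772, 5638 and 7144 CPM in Col-0 and 6019, 6498 and 6281 CPM in myc2, and its log2 fold change of 0.019 had a 95% interval of -0.17 to 0.20. Against the Col-0 runs taken apart it had opposite signs, 0.14 against replicates 1 and 2 and -0.19 against replicate 3, both with adjusted p under 0.05 in the quasi-likelihood test. LHCB1.1 and LHCB1.2 differed by -0.033 and -0.09 on the log2 scale and were not called.

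Summed over its 5 copies, LHCB1 was at 12060, 11480 and 14000 CPM in Col-0 and 12080, 13010 and 12410 CPM in myc2. The myc2 libraries thus lay level with or above Col-0 replicates 1 and 2 and below replicate 3, which was 1.19-fold above the other Col-0 libraries (log2 fold change 0.25, SE 0.047, adjusted p = 0.00063, edgeR quasi-likelihood test). Over all 3 Col-0 libraries the sum did not pass the test, with a log2 fold change of -0.0017 and an SE of 0.074 (adjusted p = 0.989). Within that sum, the share of LHB1B1 was 1.61% to 1.70% in Col-0 and 3.50% to 3.55% in myc2. The log2 ratio of LHB1B1 to the other 4 copies was -5.89 ± 0.039 in Col-0 and -4.77 ± 0.012 in myc2 (SD, n = 3), a difference of 1.11 with no overlap between groups. An exact two-sided permutation test over libraries gave p = 0.1, the smallest that 3 against 3 allow, and 0.167 after adjustment over 10 ratios. The same p held for the ratio of LHB1B1 to its neighbour LHB1B2, which rose by 1.23 on the log2 scale.

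LHCB2 is the antenna protein whose phosphorylation by the kinase STN7 accompanies the movement of the antenna to photosystem I. Its copy LHCB2.3 (AT3G27690) was at 519, 531 and 578 CPM in Col-0 and 663, 679.6 and 682 CPM in myc2, and every myc2 library was above every Col-0 library (log2 fold change 0.31, SE 0.059, adjusted p = 0.00143). LHCB2.2 (AT2G05070) moved the other way and was at 1493, 1568 and 1603 CPM in Col-0 and 1340, 1378 and 1355 CPM in myc2 (log2 fold change -0.20, SE 0.054, adjusted p = 0.0144), again without overlap, though without any 1 of the myc2 libraries its adjusted p was 0.0509 to 0.0786. LHCB2.1 (AT2G05100) fell short of the threshold at a log2 fold change of -0.15 (95% interval -0.28 to -0.019). LHCB2.3 took 12.8% to 13.1% of LHCB2 reads in Col-0 and 17.1% to 17.4% in myc2, and the summed LHCB2 counts did not pass the test (log2 fold change -0.096, SE 0.055, adjusted p = 0.201, edgeR). LHCB3 (AT5G54270), the trimer subunit that lacks the phosphorylated threonine, was at 2479, 2868 and 3210 CPM in Col-0 and 2612, 2661 and 2638 CPM in myc2 and was not called.

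**Figure D2:**
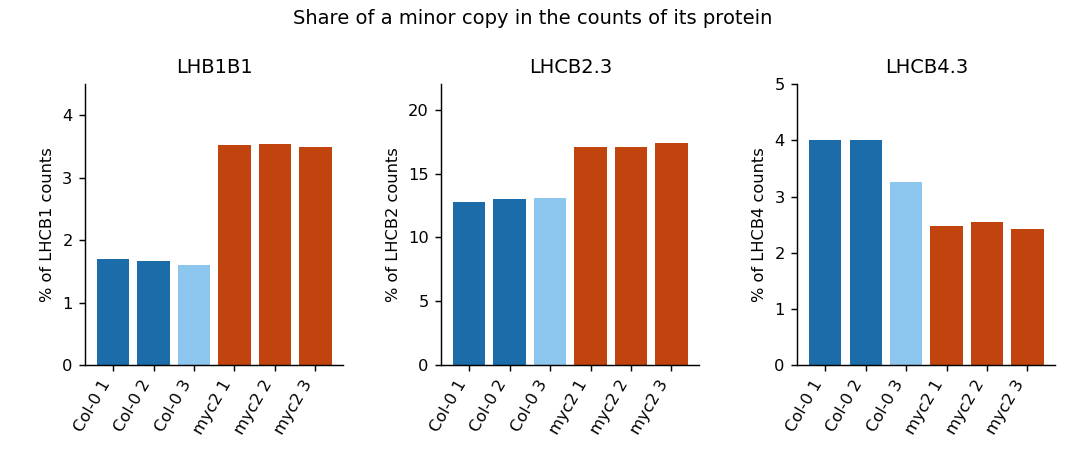
Share of LHB1B1 in the counts of the 5 LHCB1 copies, of LHCB2.3 in those of the 3 LHCB2 copies and of LHCB4.3 in those of the 3 LHCB4 copies, as percent, 1 bar per library (dark blue Col-0 replicates 1 and 2, light blue Col-0 replicate 3, red myc2). LHB1B1 moves from 1.61% to 1.70% in Col-0 to 3.50% to 3.55% in myc2, and LHCB4.3 from 3.26% to 4.01% to 2.42% to 2.54%.

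Among the monomeric antenna proteins, LHCB4 (CP29), LHCB5 (CP26) and LHCB6 (CP24) link the trimers to the photosystem II core. LHCB4.3 (AT2G40100), the least abundant LHCB4 copy, was at 119.9, 107 and 114 CPM in Col-0 and 68.1, 72.8 and 67.2 CPM in myc2 and had the largest fall of all members, 1.63-fold (log2 fold change -0.71, SE 0.067, adjusted p = 8.53e-06). The fall was as large against Col-0 replicates 1 and 2 as against replicate 3 (log2 fold changes -0.71 and -0.71). The major copies LHCB4.1 and LHCB4.2 were not called, at -0.14 and -0.046 on the log2 scale. LHCB4.3 thereby went from 3.26% to 4.01% of LHCB4 reads in Col-0 to 2.42% to 2.54% in myc2 (exact permutation p = 0.1, adjusted 0.167).

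LHCB5 (AT4G10340) had the highest level per length of the monomeric antenna genes, 3645 ± 327 CPM per kb in Col-0 and 3168 ± 26.7 in myc2 (SD, n = 3). It was at 4908, 4706 and 5574 CPM in Col-0 and 4381, 4443 and 4376 CPM in myc2, so that the groups did not overlap (log2 fold change -0.20, SE 0.067, adjusted p = 0.0329). Without any 1 of the myc2 libraries its adjusted p was 0.0981 to 0.122. LHCB6 (AT1G15820) was at 1782, 1540 and 2054 CPM in Col-0 and 1642, 1714 and 1663 CPM in myc2, within the spread of Col-0.

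Of the 6 antenna genes of photosystem I, 1 passed the test. LHCA1 to LHCA4 encode the belt of antenna proteins at the side of the complex, and LHCA5 and LHCA6 encode minor proteins that attach it to the NDH complex. LHCA5 (AT1G45474) was lower, at 233, 244 and 279.8 CPM in Col-0 and 202, 220.5 and 204 CPM in myc2 (log2 fold change -0.27, SE 0.074, adjusted p = 0.0126), with adjusted p of 0.0696 and 0.0688 without myc2 replicates 1 and 3. Its relative LHCA6 was at a log2 fold change of -0.19 (-0.35 to -0.027). LHCA4 (AT3G47470) had the highest level per length, 2502 ± 234 CPM per kb in Col-0 and 2274 ± 17.3 in myc2 (SD, n = 3), and was at 3281, 2919 and 3521 CPM in Col-0 and 2953, 2962 and 2919 CPM in myc2, with overlapping groups. The 95% intervals of LHCA1 (-0.15 to 0.14) and LHCA2 (-0.20 to 0.062) spanned 0.

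Of the 12 photosystem I subunit genes, 3 fell and 9 did not pass. PSAK (AT1G30380), a peripheral membrane subunit that contacts the antenna, had the highest level per length of the group in Col-0, though not in myc2. The values for PSAK were 2463 ± 136 CPM per kb in Col-0 and 1779 ± 87 in myc2 (SD, n = 3). It was at 1896, 1997 and 1788 CPM in Col-0 replicates 1, 2 and 3 and 1298, 1432 and 1373 CPM in the myc2 libraries, all 3 myc2 libraries below Col-0 (log2 fold change -0.47, SE 0.062, adjusted p = 0.000123), and it was lower against each Col-0 run. PSAO (AT1G08380) and PSAH2 (AT1G52230) encode subunits on the side where the mobile antenna docks. PSAO was at 1572, 1607 and 1843 CPM in Col-0 and 1196, 1386 and 1361 CPM in myc2 (log2 fold change -0.35, SE 0.077, adjusted p = 0.00395). PSAH2 was at 1154, 1235 and 1472 CPM in Col-0 and 1028, 1080 and 979.9 CPM in myc2 (log2 fold change -0.32, SE 0.084, adjusted p = 0.0105), with an adjusted p of 0.0643 without myc2 replicate 3. In both genes the Col-0 libraries were above the myc2 libraries and replicate 3 was the highest.

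The near copy PSAH1 (AT3G16140) was not called, at a log2 fold change of -0.15 (-0.40 to 0.10), and the summed PSAH counts fell 1.19-fold (adjusted p = 0.0468, edgeR quasi-likelihood test). PSAL, which holds PSAH and PSAO in the complex, was at 1591, 1466 and 1955 CPM in Col-0 and 1451, 1533 and 1506 CPM in myc2 and was not called either. The subunits of the stromal side, PSAD and PSAE, which dock ferredoxin, had log2 fold changes of 0.084 and -0.02 for the PSAD and 0.037 and 0.048 for the PSAE copies, and PSAF and PSAN, which dock plastocyanin, were at -0.076 and 0.057.

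Of the 10 photosystem II subunit genes, 4 fell and 6 did not pass. PSBW (AT2G30570), a small subunit that stabilizes the contact between core and antenna, was at 1161, 1176 and 1256 CPM in Col-0 and 862, 937 and 897 CPM in myc2 (log2 fold change -0.41, SE 0.059, adjusted p = 0.000197). PSBS (AT1G44575), the sensor of lumen acidity in the rapid dissipation of excess light, was at 2252, 2165 and 2626 CPM in Col-0 and 1792, 1828 and 1778 CPM in myc2 (log2 fold change -0.38, SE 0.072, adjusted p = 0.00143). Both were below every Col-0 library in every myc2 library, and both kept their calls whichever library was left out. PSBX (AT2G06520), a small membrane subunit, and PSBP1 (AT1G06680), an extrinsic protein of the oxygen-evolving complex, fell 1.22-fold and 1.13-fold, with adjusted p of 0.015 and 0.0298 in the edgeR test, and both lost their calls without any 1 of the myc2 libraries.

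The other extrinsic proteins of the oxygen-evolving complex did not pass. PSBO1, which encodes the main manganese-stabilizing protein, had an interval of -0.13 to 0.11. PSBQ1 was at -0.32 (-0.64 to -0.0036, adjusted p = 0.106, edgeR) and PSBQ2 at -0.14. PSBR (AT1G79040), a protein that supports assembly of that complex, had the highest level per length of all members, 5655 ± 495 CPM per kb in Col-0 and 5319 ± 86.5 in myc2 (SD, n = 3), and was at 4628, 4685 and 3987 CPM in Col-0 and 4117, 4247 and 4147 CPM in myc2.

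The Col-0 libraries themselves differed in these genes. In Col-0 replicate 3, 26 of the 42 members were higher than in replicates 1 and 2, 1 was lower and 15 did not pass (edgeR quasi-likelihood fit of 3 groups, 1 for each sequencing run, in which the lone library was assumed to vary like the others). That is 61.9% of the members higher and 2.38% lower, while over all genes 6.3% were higher and 9.26% lower. The median log2 fold change was 0.19 for the members and 0.0011 for all genes tested. Replicate 3 was above both other Col-0 libraries for 37 members and below both for 4. The like share over all genes was not computed, so these counts are a description only.

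**Figure D3:**
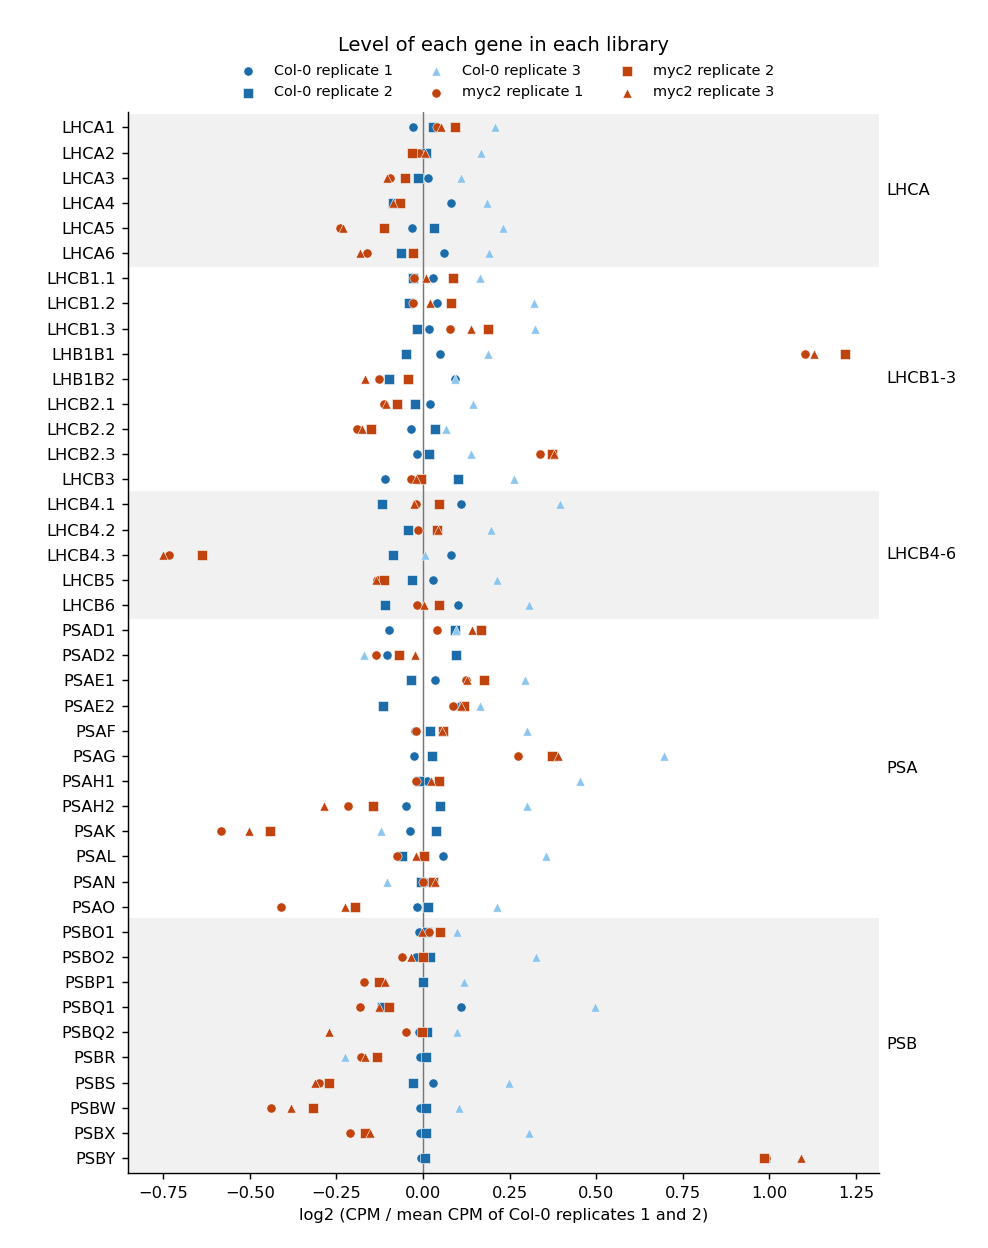
Level of each member in each library as the log2 ratio of its CPM to the mean CPM of Col-0 replicates 1 and 2, by gene group. Col-0 replicate 3 (light blue triangles) lies above the other Col-0 libraries for 37 of 42 members, a count without a share over all genes. For PSBY replicate 3 lies with the myc2 libraries, near 560.5 CPM.

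The higher members of replicate 3 came from every group: 4 of 6 LHCA genes, 6 of 9 trimeric and 4 of 5 monomeric antenna genes, 7 of 12 PSA genes and 5 of 10 PSB genes. Apart from PSBY and PSAG their folds were 1.1 to 1.41. Summed over all members, the level was 69990, 68810 and 79300 CPM in Col-0 and 65980, 68810 and 67090 CPM in myc2, and the ratio of replicate 3 to the mean of replicates 1 and 2 was 1.14. The groups were alike in this, with ratios of 1.13 for LHCA, 1.17 for LHCB1 to LHCB3, 1.2 for LHCB4 to LHCB6, 1.16 for PSA and 1.09 for PSB.

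**Figure D4:**
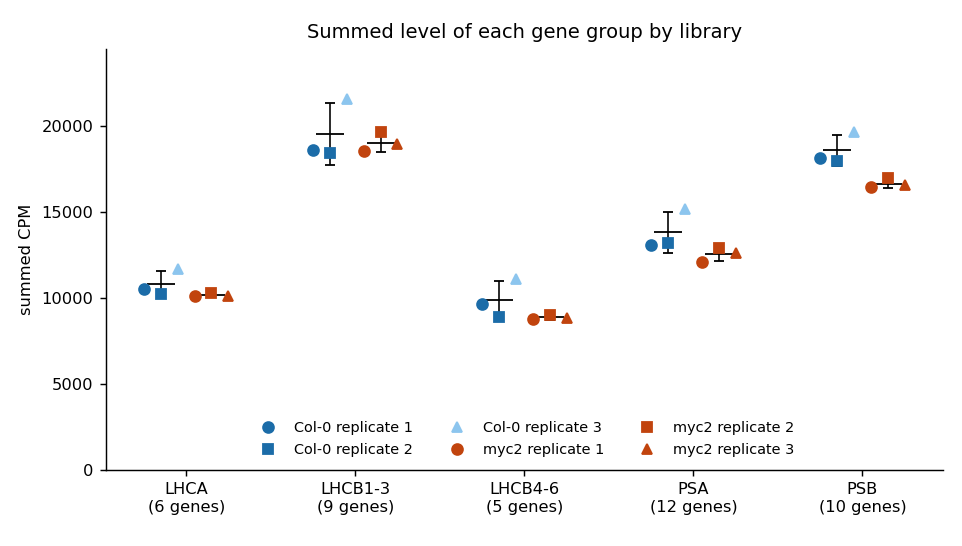
Summed CPM of each gene group in each library (symbols), with mean and SD of the 3 libraries of a genotype (black bars). In all 5 groups Col-0 replicate 3 is the highest of the 6 libraries. The other Col-0 libraries lie close to myc2 in LHCA, at 10500 and 10240 CPM against 10100 to 10260 CPM, and above it in PSB, at 18130 and 18010 CPM against 16450 to 16990 CPM.

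PSBY (AT1G67740), a small membrane subunit beside cytochrome b559, set replicate 3 furthest apart. It was at 280.4, 283 and 560.5 CPM in Col-0 replicates 1, 2 and 3 and 559.8, 557 and 599.5 CPM in the myc2 libraries, so that replicate 3 was 1.99-fold above the other Col-0 libraries (log2 fold change 0.99, SE 0.056, adjusted p = 6.17e-11, edgeR quasi-likelihood test) and level with myc2. Against replicates 1 and 2 alone the gene was higher in myc2, with a log2 fold change of 1.02, and against replicate 3 it was at 0.03. Over all 3 Col-0 libraries it was not called, and its 95% interval was the widest of the members.

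PSAG (AT1G55670), the peripheral photosystem I subunit that resembles PSAK in sequence, was at 624, 646 and 1028 CPM in Col-0 and 767, 822 and 831 CPM in myc2. Replicate 3 was 1.62-fold above the other Col-0 libraries (log2 fold change 0.70, SE 0.055, adjusted p = 6.5e-09, edgeR), and the myc2 libraries lay between the Col-0 runs. PSAE1 (AT4G28750) had the same order, with 1447, 1378 and 1733 CPM in Col-0 and 1539, 1595 and 1544 CPM in myc2, as did LHCB1.3. For these 3 genes myc2 was higher than replicates 1 and 2 and lower than replicate 3, each at an adjusted p under 0.05.

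For the next genes the myc2 libraries were level with Col-0 replicates 1 and 2 and replicate 3 stood alone. PSAH1 was at 712, 702 and 969 CPM in Col-0 and 697, 729 and 719 CPM in myc2 (log2 fold change 0.45, SE 0.051, adjusted p = 1.49e-06 for replicate 3, edgeR). PSBO2 (AT3G50820), the minor copy of the manganese-stabilizing protein, was at 976, 1004 and 1241 CPM in Col-0 and 949, 989 and 967 CPM in myc2 (log2 fold change 0.33, SE 0.05, adjusted p = 8.32e-05). PSAL (AT4G12800) rose 1.28-fold in replicate 3 with an adjusted p of 6.45e-05 in the same fit.

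PSBQ1 (AT4G21280), an extrinsic protein of the oxygen-evolving complex, was at 1348, 1150 and 1763 CPM in Col-0 and 1102, 1166 and 1143 CPM in myc2 and also showed a gap between replicates 1 and 2 (log2 fold change 0.50, SE 0.07, adjusted p = 0.00014 for replicate 3, edgeR). PSBX was at 874, 884 and 1088 CPM in Col-0 and 760.5, 783 and 790.4 CPM in myc2, with replicate 3 1.24-fold above the other Col-0 libraries. PSBR was the 1 member called lower in replicate 3, which was below both other Col-0 libraries and below every myc2 library (log2 fold change -0.22, SE 0.045, adjusted p = 0.00144, edgeR).

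The difference between the genotypes depended on the Col-0 run that myc2 was set against. Against Col-0 replicates 1 and 2, 6 members were higher in myc2 (14.3%) and 14 lower (33.3%), beside 21.3% and 22.8% of all genes, and the median log2 fold change was -0.031. Against replicate 3 alone, 3 members were higher (7.14%) and 32 lower (76.2%), beside 23.1% and 22% of all genes, and the median was -0.26. These comparisons share the myc2 libraries.

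Called with the same sign against both Col-0 runs were 2 members higher and 13 lower, or 4.76% and 31% of the members, beside 13.8% and 15.9% of all genes. The 13 were the 11 that were lower over all Col-0 libraries together with LHCB2.1 and PSBQ1. The genes higher against replicates 1 and 2 were LHB1B1, LHCB2.3, LHCB1.3, PSAE1, PSAG and PSBY, and of these only LHB1B1 and LHCB2.3 were also higher against replicate 3. PSAN, a lumenal subunit of photosystem I, was the third gene higher against replicate 3, at 1526, 1511 and 1412 CPM in Col-0 and 1520, 1550 and 1556 CPM in myc2.

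By gene group the median log2 fold change against replicates 1 and 2 was -0.079 for LHCA, 0.024 for LHCB1 to LHCB3, 2.53e-05 for LHCB4 to LHCB6, 0.02 for PSA and -0.14 for PSB. Against replicate 3 all 6 LHCA and all 5 monomeric antenna genes were lower, with 7 of 9 trimeric antenna genes, 8 of 12 PSA genes and 6 of 10 PSB genes. The PSB genes were the group with the most falls against replicates 1 and 2, at 6 of 10.

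Other genes of the same processes, on lists of genes that were not members, gave a setting for these values. The lists are short, and over all genes tested 17.6% were called higher and 18.7% lower in myc2. Among 6 further photosystem genes, PSBTN was lower (log2 fold change -0.32, SE 0.063, adjusted p = 0.00213, edgeR) and LHCB7, a rare antenna-like protein, was higher (log2 fold change 0.36, SE 0.074, adjusted p = 0.00258), and 4 did not pass. The list of 7 LHC-like proteins held early light-induced proteins, which protect against excess light, and the LIL3 proteins, which act in chlorophyll synthesis. Of these 7, 3 fell and LIL3.2 rose (log2 fold change 0.28, SE 0.056, adjusted p = 0.00229, edgeR). ELIP2 went from 108 ± 18.1 to 52 ± 2.64 CPM (SD, n = 3) (adjusted p = 1.87e-05, edgeR), and was lower against each Col-0 run, with log2 fold changes of -0.91 and -1.30. ELIP1 was at 71, 64 and 117 CPM in Col-0 and 71.4, 71.4 and 76.2 CPM in myc2, with replicate 3 apart from the other libraries. Of 11 nuclear genes of electron transport and ATP synthase, 3 fell (PETC, PETM and FD1) and 1 rose (ATPD).

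Of 14 nuclear genes of carbon fixation, 6 fell and 8 did not pass in myc2, and 9 were higher in Col-0 replicate 3. Their summed level was 62600, 65620 and 74930 CPM in Col-0 and 58030, 59600 and 58830 CPM in myc2, a ratio of 0.869 between genotypes and of 1.17 between replicate 3 and the other Col-0 libraries. RBCS2B, a small subunit of Rubisco, went from 3243 ± 359 to 2299 ± 89.5 CPM (SD, n = 3) (adjusted p = 0.000389, edgeR), with log2 fold changes of -0.42 and -0.63 against the Col-0 runs taken apart. As in the members, replicate 3 held the highest sum of the 6 libraries.

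Of 14 genes of antenna import, assembly, state transition and control, 4 rose and 1 fell. HY5, a bZIP factor of light signalling, went from 23.4 ± 3.12 to 48.4 ± 2.04 CPM (SD, n = 3) (adjusted p = 6.5e-06, edgeR), and CPSRP43, which carries antenna proteins to the thylakoid, STN7 and GLK2 rose with log2 fold changes of 0.37, 0.26 and 0.24. GLK1, the other GOLDEN2-LIKE factor of photosystem genes, was not called, at 332, 297 and 380.0 CPM in Col-0 and 308, 309 and 309 CPM in myc2. Of 9 clock genes tested, 7 rose and 2 did not pass, with a median log2 fold change of 0.29, against -0.14 in replicate 3. LHY, a morning-phased clock repressor whose relative CCA1 was first found as a protein that binds an LHCB1 promoter, went from 844 ± 56.4 to 1231 ± 6.42 CPM (SD, n = 3) (adjusted p = 2.92e-05, edgeR). HY5 and LHY were higher against each Col-0 run, with log2 fold changes of 0.94 and 0.50 against replicates 1 and 2 and 1.29 and 0.64 against replicate 3.

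Of 20 plastid-encoded photosystem subunits 15 could be tested, and 8 fell and 1 rose in myc2. Poly(A) libraries hold little plastid RNA, and these 20 genes summed to 60.5, 59.5 and 58.1 CPM in Col-0 and 43, 39.7 and 45 CPM in myc2. PSAB, a reaction-centre protein of photosystem I, was at 5.72, 5.49 and 6.09 CPM in Col-0 and 2.88, 2.31 and 3.28 CPM in myc2. In that sum replicate 3 was level with the other Col-0 libraries, with a ratio of 0.969.

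Some markers of other shoot tissues also differed between the genotypes, as did 36.3% of all genes tested. Of 7 vascular markers 6 fell, among them SUC2, IRX3 and VND7. The other, APL, did not pass (log2 fold change -0.10, adjusted p = 0.38, edgeR). The summed level of the 7 was 352, 346 and 389 CPM in Col-0 and 251, 245 and 254 CPM in myc2. Of 8 epidermal and guard cell markers 3 rose and 1 fell, with summed levels of 640.9 to 759.7 CPM in Col-0 and 669.6 to 677.8 CPM in myc2. ATML1, FDH and MYB60 rose, while CER1 fell from 150.4 ± 16.8 to 29.2 ± 1.41 CPM (SD, n = 3) (adjusted p = 2.75e-09, edgeR). Of 7 markers of the meristem and of dividing cells 1 rose and 3 fell, with sums of 49.97 to 52.39 CPM in Col-0 and 44.44 to 48.05 CPM in myc2. Of 10 root markers 4 could be tested, 3 of which rose and 1 fell, with sums of 60.77 to 73.17 CPM in Col-0 and 74.34 to 78.54 CPM in myc2 that came mainly from SCR, GL2 and SHR, which shoots express too. WER, at few reads, rose from 0.145 to 0.341 CPM in Col-0 to 0.476 to 0.915 CPM in myc2 (adjusted p = 0.0105, edgeR). NRT2.1 had too few reads to be tested and was at 0 to 0.213 CPM in Col-0 and 0.303 to 0.724 CPM in myc2. The root hair and root tip markers COBL9, EXPA7, PLT1 and RCH1 were at 0 to 0.227 CPM in every library, and RHD6 was at 0 in all of them. The part of these markers in the members' differences was not tested.

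The sequences of the members and of the genes around them bear on some values. LHCB1.1, LHCB1.2 and LHCB1.3 are 95.6% to 96.4% identical over their coding bases, and LHB1B1 and LHB1B2 are 91.8% identical, so that reads could have been divided among copies in the counting. Of all stretches of 100 bases along the transcript, 3.3% in LHB1B1 and none in LHCB2.3 or LHCB4.3 were shared with another member. These stretches overlap one another, so where some are shared, the shared part of the bases is larger than this percentage. Genes on the same or the other strand overlapped 17 members in the TAIR10.1 annotation, and the strand setting of the counting was not given. The deposited counts held the other gene for 17 of the 21 overlapping pairs. The exons of LHB1B2 lie wholly within an antisense gene, which was absent from the deposited counts, as was the gene across PSAG. Of the stretches of 100 bases, 36.3% in the LHCB2.3, 55.8% in the PSAG and 47% in the PSAH1 transcript were shared with an overlapping gene. LHB1B1, LHCB4.3, PSAK and PSBS overlapped no other annotated gene, save for the shared stretches with LHB1B2.

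The gene on the other strand at the end of LHCB2.3, AT3G27700, had 478 to 733 reads per library and a log2 fold change of 0.18 (adjusted p = 0.0845, edgeR). The gene across PSAH1, AT3G16130, had 8 to 24 reads. The lowest counts of LHCB2.3 and PSAH1 in any library were 11022 and 14556 reads.

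Base composition and length were set beside the change in replicate 3. Across the 42 members the GC content of the transcript, 39.1% to 51.4%, and the log2 fold change of replicate 3 had a Pearson correlation of 0.085, as a description across genes of the same libraries, and across 18867 tested genes 0.16. For transcript length the values were 0.066 and -0.027. The median GC content was 44.1% for the members and 41.3% for the tested genes, and the median length 1203.5 and 1754 bases. Whether composition or length had a part in the members' higher level in replicate 3 was not tested.

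In the 250 bases before the annotated start, G-boxes (CACGTG on either strand) were found in 8 of 42 members, or 19%, and in 6.49% of 27443 nuclear protein-coding genes. The 8 were LHCA4, LHCB2.3, LHCB4.1, LHCB6, PSAE2, PSAH2, PSBQ1 and PSBQ2. Of these, the windows of LHCB6, PSAE2, PSAH2 and PSBQ1 overlapped another annotated gene, as did those of several members without a G-box. CCAAT boxes were found in 64.3% of members and 46% of all genes, I-boxes in 21.4% and 12.3%, CCA1-binding elements in 11.9% and 6.69%, G-box-like elements in 9.52% and 11.1%, and evening elements in 2.38% and 2.36%. None of the 6 motifs contains another.

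Of the 8 members with a G-box, PSAH2 was lower and LHCB2.3 higher in myc2, and the median log2 fold change was -0.14, against -0.12 for the 34 others. In Col-0 replicate 3 the medians were 0.24 and 0.19. The PSB genes other than PSBQ1, PSBQ2 and PSBX held none of the 6 motifs in this window.

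**Figure D5:**
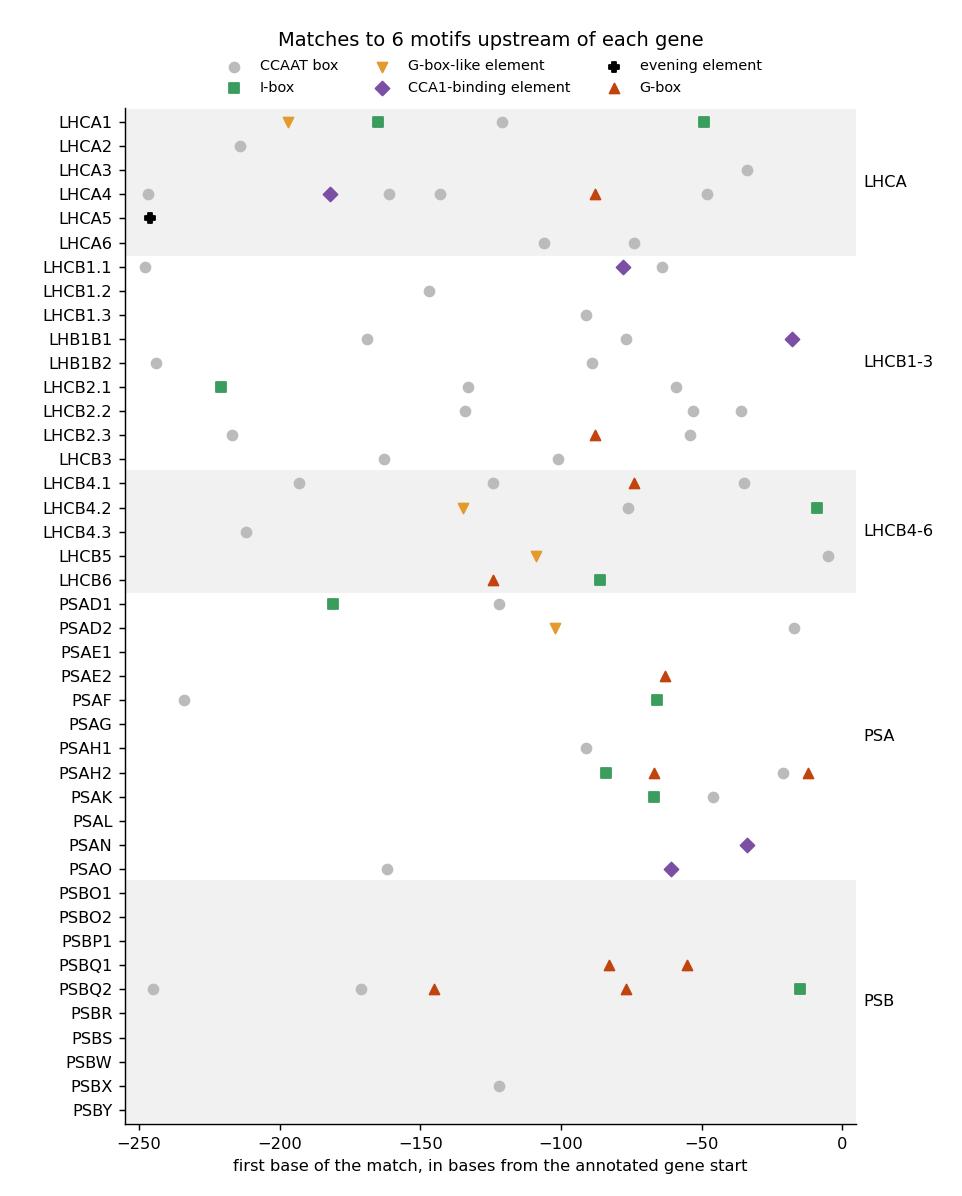
Matches to 6 motifs, on either strand, in the 250 bases before the annotated start of each member, placed by the first base of the match in bases from the start. G-boxes (red triangles) lie upstream of 8 members, within 145 bases of the start.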

How the data were processed

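Shoot poly(A) RNA was sequenced, 3 libraries per genotype, from an Illumina TruSeq RNA kit. The authors deposited raw counts of reads for every gene as whole numbers, and per the labels fastp, HISAT2, SAMtools and StringTie were used with the TAIR10 genome. The program that counted the reads, whether it used strand, its gene models and all versions were not given in the sources used here. Reads that fit overlapping genes, or copies of a gene, could thus have been split or lost. A deposited table of the authors' own fold changes and p-values was not used.

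Counts were filtered (filterByExpr, 18961 of 28775 genes kept), scaled by TMM and fitted by genotype with edgeR 4.0.16 (R 4.3.3, robust quasi-likelihood F-test), and p-values were adjusted by Benjamini-Hochberg over all genes tested, at a threshold of 0.05. A second fit had the Col-0 runs as separate groups. The biological coefficient of variation was 8.44%. CPM use the TMM-scaled library sizes, and 1 read was 0.0327 to 0.0472 CPM. The step was tested on simulated data. Log2 ratios of copies were compared by exact two-sided permutation over libraries. Alternatives were other scalings and filters, DESeq2 1.42.0, limma-voom 3.58.1, thinned counts, summed copies, leaving out each library and a replicate block. Same-numbered libraries did not deviate together (correlations of deviations -0.024, 0.0084 and 0.021), so the numbers were not taken as pairs. The study calls its RNA-seq replicates biological, but no source used here says that they came from separate plantings, so that p-values cover only the spread among the 6 samples, which may be technical.

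Coordinates and sequences are from RefSeq TAIR10.1, copies were aligned with Biopython 1.88, and upstream windows were matched for all 42 members. Members and gene lists were chosen with earlier results of these data known. Values in every library are given for the 10 members with the smallest adjusted p between genotypes, and the 8 such members in replicate 3. They are also given for the copy of each group with the highest level per length in Col-0. Other members named with their values, and list genes beyond the 3 of smallest adjusted p, were chosen after their values were seen.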

Additional observations from a re-analysis of the deposited data

How the results depend on the processing

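The 2 higher and 11 lower members of myc2 were all called again under the 8 other settings of scaling, filtering, testing and thinning, as were 24 of the 26 higher members of Col-0 replicate 3, the exceptions being LHB1B1 and PSAO. DESeq2 called 1905 genes in replicate 3, against 2950. With the copies of a protein summed, 0 of 29 features were higher in myc2 in the edgeR test, and 0 at an unadjusted p under 0.05. In that fit 20 features were not called and the others were lower, beside 17.6% of all genes higher and 18.7% lower. The replicate block gave 2 members higher, 10 lower and 6639 genes called, against 6889 without it.

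The choice of Col-0 library mattered more. Against replicates 1 and 2 in the 3-group fit, 6 members were higher, the median was -0.031 and 9 uncalled members changed sign. Against replicate 3, 32 were lower, the median was -0.26, and 6 members changed sign, LHCB1.3 (-0.19), PSBR (0.065), PSAD2, PSAE1, PSAE2 and PSAG. With 1 library left out, 2 to 6 members were higher and 5 to 18 lower in myc2, and medians ran from -0.18 to -0.031. The 5 lower members called in every such fit were LHCB4.3, PSAK, PSAO, PSBS and PSBW, beside LHB1B1 and LHCB2.3 among those higher. Calls of 6 were lost at least once (LHCA5, LHCB2.2, LHCB5, PSAH2, PSBP1 and PSBX). The count of lower members was 18 without Col-0 replicate 2, and 6, 7 and 5 without myc2 replicates 1, 2 and 3. Without Col-0 replicate 3 there were 6 higher members and a median of -0.031. In replicate 3 itself, 1 to 2 members were lower, 2 of them without Col-0 replicate 1, and 20 of the 26 higher calls were kept throughout. LHCB1.3 ran from -0.051 to 0.135, below 0 when either of Col-0 replicates 1 and 2 or the second myc2 library was left out, and called without Col-0 replicate 3. The ratio of PSAE1 to PSAE2, -0.0093, ran from -0.069 to 0.033.

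The lowest member count was 1765 reads, but 5 of the 20 plastid-encoded genes had too few reads to be tested. With 3 libraries a genotype, no exact permutation p can be under 0.1. Genotype and sequencing run cannot be told apart.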
